A study of Homo sapiens with 2 samples.

Results

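The 31 genes described here make cholesterol and fatty acids or control that synthesis, and they were chosen by name from the 33538 gene rows of a single-cell CRISPR screen. They hold 18 enzymes from acetyl-CoA to cholesterol, 8 enzymes of fatty acid synthesis, elongation and desaturation, the regulators SREBF1, SREBF2 and SCAP, and INSIG1 and STARD4, which are SREBP2 targets that are no enzymes. All 31 had UMIs (unique molecular identifiers, which count captured mRNA molecules).

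The screen used A549, a human lung adenocarcinoma line, with Cas9 under a doxycycline-inducible promoter in all cells, the controls included. The cells received a lentiviral pool of 120 gRNAs with an MOI (infecting particles per cell) of 0.3, were selected with puromycin, had Cas9 induced for 2 days and were grown for 5 more days. Of the gRNAs, 100 target 25 genes and 20 are non-targeting. All cells were processed as 1 pool, so there is no replicate, and no p-value is given.

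The transcriptome library held 5744 cell barcodes and 210519208 UMIs, with a median of 34625 per barcode (513 to 161719), and 5466 barcodes had UMIs in both the transcriptome and the gRNA library. A gRNA was called above 3 UMIs. This gave 2269 barcodes with no gRNA, 3189 with exactly 1 and 286 with several, and the last were left out of all pools. Non-Targeting cells numbered 696 and cells with 1 targeting gRNA 2493, in target pools of 20 to 190 cells. The simple epithelial keratins KRT8 and KRT18 had a UMI in 99.4% and 99.7% of barcodes, but the lung lineage factor NKX2-1 in 0.157% and the surfactant gene SFTPB in 0.0174%. At least 3 fibroblast markers were found in 1 barcode, and at least 3 immune or endothelial markers in none.

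Sterol synthesis is controlled mainly by SREBP2, the product of SREBF2, and fatty acid synthesis mainly by SREBP1, the product of SREBF1, with overlap between their targets. SCAP carries both factors from the endoplasmic reticulum to the Golgi, where they are cut to their active form, and INSIG proteins hold SCAP back when sterols are plentiful. Tumour cells grown with serum both take up and make these lipids, and dividing cells need them for membranes.

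The window of 250 bases before each transcription start was searched for motifs linked to SREBP control, in RefSeq sequences on GRCh38.p14 that were found for 27 of the 31 genes. CCAAT, the core of the NF-Y motif, was present on either strand in 20 of the 27 genes, against 37.0% of all 27305 genes with a window, and in 64.9% of the 37 single windows of these genes against 32.0% of all windows, since a gene can have several starts. GGGCGG, the core of the Sp1 motif, was present in 26 of the 27 genes against 46.2% of all genes. The sterol regulatory element TCACNCCAC was found in 1 gene, SREBF2, against 1.09% of all genes, and the shorter CACNCCAC that it contains in 6 of the 27 genes against 5.89%. The E-box CACGTG was found in 3 of the 27 genes against 7.73%. A match in this window is a description of its letters, not a binding site.

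The stretches below belong to the genes whose values stand apart in the results. FDPS and EBP are sterol enzymes that were higher in cells with high G2/M expression and lower in the RPL18 pool, SCD is a fatty acid enzyme whose level lay the other way in both comparisons, and IDI1 and INSIG1 were the lower genes of the MVD pool. Capitals mark matches of the NF-Y core, the Sp1 core and the shorter sterol element on either strand, and only the longest part of each window outside annotated exons is shown. FDPS lies on the plus strand at chr1:155308616-155308747, EBP on the plus strand at chrX:48521558-48521798 and SCD on the plus strand at chr10:100346983-100347232. INSIG1 lies on the plus strand at chr7:155297628-155297775, and IDI1, at the third of its annotated starts, on the minus strand at chr10:1049120-1049369.
FDPS: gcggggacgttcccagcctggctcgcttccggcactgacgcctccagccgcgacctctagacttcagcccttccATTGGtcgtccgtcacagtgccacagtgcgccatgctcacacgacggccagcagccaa
EBP: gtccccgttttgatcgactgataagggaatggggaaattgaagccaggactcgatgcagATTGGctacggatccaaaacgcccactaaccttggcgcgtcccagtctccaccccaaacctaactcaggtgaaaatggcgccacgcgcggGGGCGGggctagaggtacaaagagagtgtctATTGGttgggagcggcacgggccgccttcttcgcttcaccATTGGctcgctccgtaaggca
SCD: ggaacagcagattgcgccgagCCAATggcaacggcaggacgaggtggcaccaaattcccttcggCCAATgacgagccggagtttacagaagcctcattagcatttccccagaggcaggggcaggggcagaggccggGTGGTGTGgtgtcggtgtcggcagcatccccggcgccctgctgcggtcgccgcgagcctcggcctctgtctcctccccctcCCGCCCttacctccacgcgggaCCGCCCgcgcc
INSIG1: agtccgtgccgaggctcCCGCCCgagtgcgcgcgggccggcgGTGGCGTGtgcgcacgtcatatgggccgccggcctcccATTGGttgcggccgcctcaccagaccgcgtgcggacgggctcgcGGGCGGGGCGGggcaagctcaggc
IDI1: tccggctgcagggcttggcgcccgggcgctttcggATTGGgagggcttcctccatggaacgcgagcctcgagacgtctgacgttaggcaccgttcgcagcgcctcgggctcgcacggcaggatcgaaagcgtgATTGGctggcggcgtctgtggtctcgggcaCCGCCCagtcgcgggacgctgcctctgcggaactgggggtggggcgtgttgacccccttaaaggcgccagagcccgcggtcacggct
CACNCCAC was matched in the stretches of SCD and INSIG1 and not in those of FDPS, EBP and IDI1. IDI1 is still among the 6 genes with this match, which lies in the window of another of its starts. CCAAT was matched 3 times in the EBP stretch, 2 times each in those of SCD and IDI1 and 1 time each in those of FDPS and INSIG1.

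Over all barcodes, both branches were expressed at similar summed levels. The 17 sterol enzymes other than MVD, which is left out of the sum because it was targeted, held 205895 UMIs or 978 CPM (UMIs of the genes per 1000000 UMIs of all genes; exact 95% interval 974 to 982), and the 8 fatty acid enzymes held 214583 UMIs or 1019 CPM (1015 to 1024). All intervals cover counting error only, since cells of 1 pool are not replicates and PCR before UMI collapsing leaves its own errors. UMIs mark the 3' end of a transcript and do not scale with its length, but capture differs between genes, so levels of different genes are given side by side and no order is read from them. Among enzymes of the mevalonate steps, FDPS, which makes farnesyl diphosphate, stood at 217 CPM, IDI1, which isomerises isopentenyl diphosphate, at 76.2, the acetyl-CoA thiolase ACAT2 at 74.6, the kinase PMVK at 69.1, the synthase HMGCS1 at 27.5, the decarboxylase MVD at 20.4 and the kinase MVK at 11.8.

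In the squalene and sterol steps, EBP, the sterol isomerase, stood at 140.1 CPM, the epoxidase SQLE at 97.4 and the squalene synthase FDFT1 at 83.5. The reductase DHCR7 (44.4), the dehydrogenase NSDHL (39.9), the reductase TM7SF2 (36.6), the methyl oxidase MSMO1 (22.7) and the reductase HSD17B7 (15.4) followed in the same sum. The demethylase CYP51A1 (7.70), the lanosterol synthase LSS (7.51) and the desaturase SC5D (6.49) had few UMIs.

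Most UMIs of the fatty acid sum came from desaturases. FADS1, the delta-5 desaturase, stood at 352 CPM, SCD, which introduces the first double bond into saturated fatty acids, at 280.3 CPM, and FADS2, the delta-6 desaturase, at 109 CPM. The citrate lyase ACLY stood at 133 CPM, the synthase FASN at 87.0, the acetyl-CoA carboxylase ACACA at 34.8, the elongase ELOVL6 at 15.9 and the acetyl-CoA synthetase ACSS2 at 6.16. Of the other genes, SREBF1 stood at 54.7 CPM, INSIG1 at 30.98, SREBF2 at 17.6, SCAP at 14.01 and STARD4, a sterol carrier, at 9.49.

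**Figure D1:**
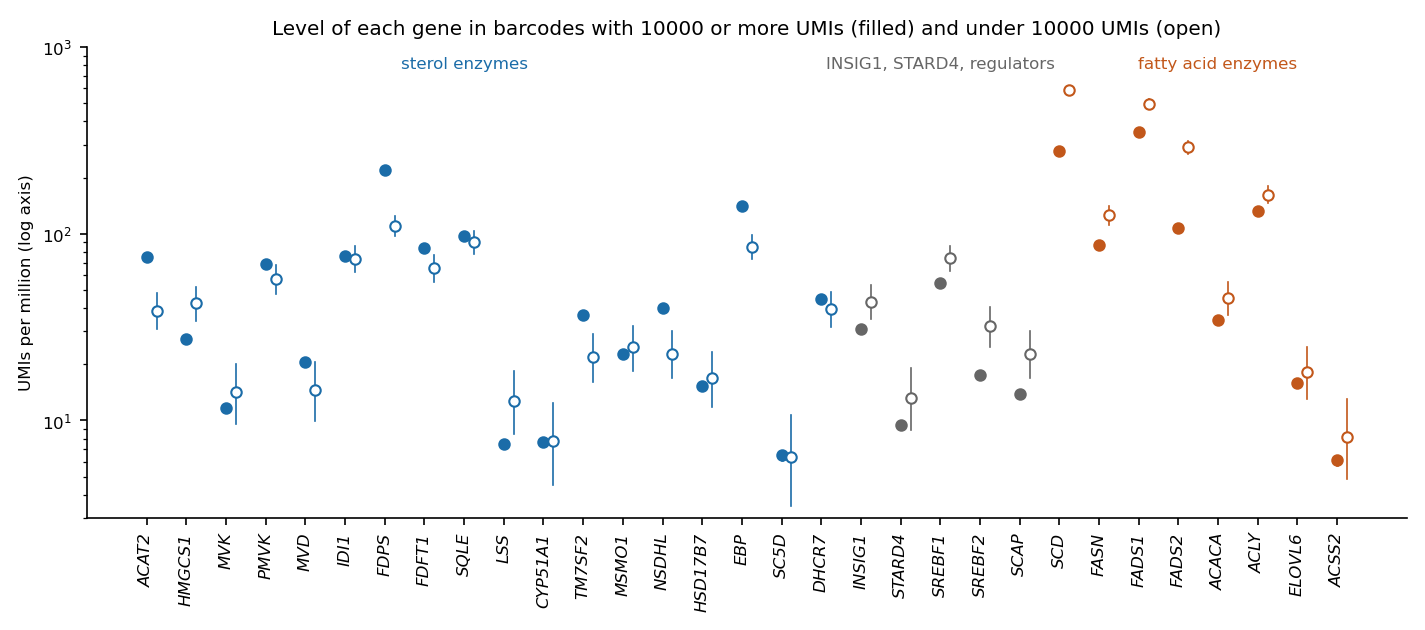
Level of each of the 31 genes in CPM (log axis), in barcodes with 10000 or more UMIs (filled points) and under 10000 UMIs (open points), with exact 95% Poisson intervals that cover counting error only. Open points lie above the filled ones for all 8 fatty acid genes, and below them for FDPS (110 against 218 CPM), EBP and ACAT2.

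The balance of the branches moved with depth. In the 427 barcodes under 10000 UMIs, the fatty acid sum was 1734 CPM (1680 to 1790) against 1012 (1008 to 1016) in the 5317 others, and the sterol sum was 729 CPM (693 to 765) against 981 (976 to 985). FADS2 was at 290 against 107 CPM and SCD at 588 against 277 CPM, the widest ratios of the fatty acid genes. In contrast, FDPS was at 110 against 218 CPM, ACAT2 at 38.7 against 74.96, and EBP at 84.8 against 141.

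For counts of genes, a gene was taken as measured where at least 50 UMIs were anticipated in the smaller group if both groups shared 1 level, and as higher or lower where the log2 ratio of CPM + 1 lay beyond 0.32 in either direction. Of 6 measured fatty acid enzymes 5 were higher in the shallow barcodes and 0 lower, beside 19.2% of all 4540 measured genes that were higher. Of 11 measured sterol enzymes 6 were lower (FDPS, ACAT2, NSDHL, EBP, TM7SF2 and FDFT1) and 1 higher (HMGCS1), beside 36.1% of all genes that were lower, so the share of lower sterol enzymes stood nearer to that of all genes. INSIG1 (43.3 against 30.9 CPM) and SREBF1 (73.8 against 54.5 CPM) were both higher. The share of mitochondrially encoded UMIs was highest below 10000 UMIs, with 20.3% from 5000 to 10000, against 15.8%, 12.8% and 11.5% in the deeper ranges, and its part in these differences was not tested. From 10000 to 20000 UMIs the fatty acid sum was still 1233 CPM and the sterol sum 782 CPM, and above 40000 they were 1045 and 1016 CPM.

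MVD, diphosphomevalonate decarboxylase, is the one gene of both pathways that the screen targeted, and the comparison asks whether cells with its gRNAs differed in the rest of the pathway. The coordinates in the names of the 4 MVD gRNAs, whose genome build is not given in the sources used here, lie outside MVD on GRCh38, so their cut sites were not placed. The pool held 69 cells with a median of 33790 UMIs, of which 18 carried MVD_gRNA1, 16 MVD_gRNA2, 1 MVD_gRNA3 and 34 MVD_gRNA4. MVD itself had 56 UMIs in the pool (22.1 CPM, 16.7 to 28.7) against 473 UMIs (18.8 CPM) in Non-Targeting cells, a ratio of 1.17 (0.873 to 1.55). By gRNA it was at 24.7 CPM with gRNA1 (16 UMIs), 13.5 with gRNA2 (7 UMIs), 12.7 in the single cell with gRNA3 (1 UMI) and 24.7 with gRNA4 (32 UMIs), and all 4 intervals of the ratio included 1. The mRNA of the target was therefore not detectably lower at this depth, and loss of the protein was not measured.

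The sterol sum of the MVD pool was 944 CPM against 984 in Non-Targeting cells, a ratio of 0.959 (0.919 to 1.00). The fatty acid sum was 912 CPM against 1024, a ratio of 0.891 (0.854 to 0.930), the lowest of the 25 target pools. The 15 non-targeting gRNAs found in 10 or more cells (13 to 134) were each set against the other control cells to show the spread between gRNAs without a target. These ratios ran from 0.891 to 1.10 for the sterol sum and from 0.871 to 1.10 for the fatty acid sum, so both values of the MVD pool lay inside the spread of controls.

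The 3 MVD gRNAs with more than 1 cell did not share a sterol level. MVD_gRNA1 had 802 CPM, MVD_gRNA2 had 1070 CPM and MVD_gRNA4 had 988 CPM of the sterol sum, at ratios of 0.816 (0.746 to 0.890), 1.09 (0.998 to 1.18) and 1.00 (0.949 to 1.06). Their fatty acid sums were 822, 879 and 964 CPM, at ratios of 0.803 (0.736 to 0.875), 0.859 (0.781 to 0.942) and 0.942 (0.889 to 0.9969). The single cell with MVD_gRNA3 had 43 sterol UMIs (547 CPM) and 80 fatty acid UMIs (1018 CPM). The 3 larger groups lay below Non-Targeting cells in the fatty acid sum, and gRNA1 and gRNA2 below every single non-targeting gRNA. MVD_gRNA1 alone among those 3 was below that range in the sterol sum. Left out in turn, gRNA1 moved the sterol ratio to 1.01 and gRNA4 moved the fatty acid ratio to 0.838.

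Of the 30 genes other than MVD, 20 were measured in the MVD pool, and 2 were lower and 0 higher, beside 5.38% lower and 2.36% higher of all 5037 measured genes. INSIG1, an SREBP target that retains SCAP when sterols are plentiful, had 53 UMIs (20.9 CPM) against 781 (31.05 CPM) in Non-Targeting cells, a log2 ratio of -0.55. It was at 13.9 CPM with gRNA1 (9 UMIs), 15.5 with gRNA2 (8 UMIs) and 26.3 with gRNA4 (34 UMIs), below the control level with each. IDI1 had 152 UMIs (59.9 CPM) against 1916 (76.2 CPM), a log2 ratio of -0.34. It was at 46.3 CPM with gRNA1 and 55.7 CPM with gRNA4 but at 92.7 CPM with gRNA2, above the control level. IDI1 no longer passed the fold without gRNA1, gRNA3 or gRNA4, for the mean over cells or with a pseudocount of 10 CPM. Without gRNA4, INSIG1 fell under the minimum of UMIs and was not counted, although its levels with gRNA1 and gRNA2 were lower than with gRNA4.

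ACAT2 (63.4 against 77.4 CPM, log2 ratio -0.28) and SCD (232 against 278 CPM, -0.26) came next and stayed within the fold. FADS1 was at 312 against 362 CPM (-0.21), which together with SCD made up most of the lower fatty acid sum. Without SCD and FADS1 the fatty acid ratio was 0.961, an alternative chosen after the values were seen. FADS2 was at 77.1 CPM with gRNA1 and 75.3 CPM with gRNA2, against 111 CPM in Non-Targeting cells, but at 119 CPM with gRNA4. FDPS (216 against 220 CPM), EBP (151 against 143 CPM), FASN (88.7 against 89.2 CPM) and ACLY (132 against 130 CPM) lay close to the controls.

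The median log2 ratio was -0.09 over the 12 measured sterol enzymes and -0.11 over the 6 measured fatty acid enzymes, beside -0.01 over all measured genes. Under the minimum were MVK, LSS, CYP51A1, HSD17B7, SC5D, STARD4, SREBF2, SCAP, ELOVL6 and ACSS2, with 11 to 51 UMIs each in the pool. Among them STARD4, a sterol carrier protein, had 12 UMIs (4.73 CPM against 8.75, ratio 0.541, 0.275 to 0.964) and SCAP 48 UMIs (18.9 CPM against 13.3, ratio 1.42, 1.03 to 1.93). Of 12 further genes of sterol uptake, cholesterol handling and the isoprenoid branch 8 were measured, and 1 was higher and 3 lower, not all of them named here. GGPS1, which makes geranylgeranyl diphosphate from the product of FDPS, was higher, at 28.8 against 21.5 CPM (log2 ratio 0.40). The lysosomal lipase LIPA (18.5 against 26.1 CPM, -0.47) and the lipoprotein receptor SCARB1 (28.8 against 36.3 CPM, -0.33) were lower. None of 3 measured further SREBP regulators and none of 5 measured further lipogenic genes passed the fold, and no LXR target was measured. The S phase sum of 14 genes was 0.778 (0.738 to 0.819) and the G2/M sum of 16 genes 0.910 (0.880 to 0.941) of Non-Targeting cells in the MVD pool, and their part in these values was not tested.

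**Figure D2:**
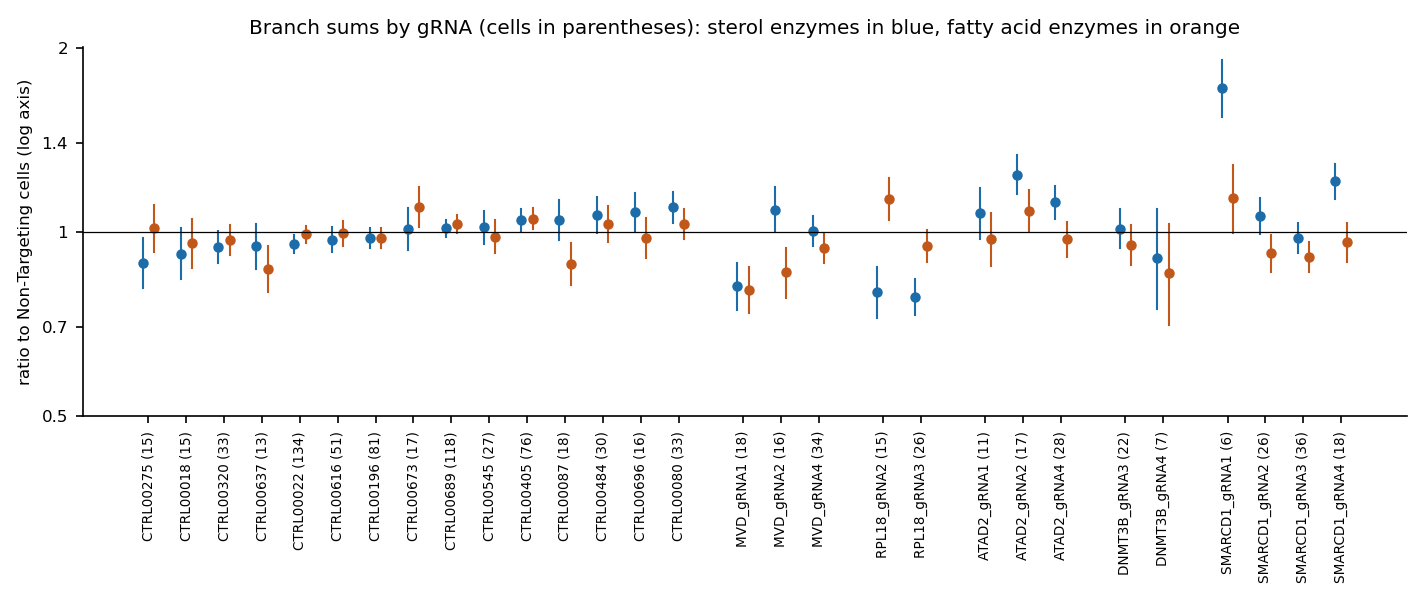
Ratio of the sterol sum (blue) and the fatty acid sum (orange) to Non-Targeting cells for single gRNAs (log axis), with the number of cells in parentheses and exact 95% intervals that cover counting error only. Non-targeting gRNAs (CTRL names, each against the other control cells) are followed by the gRNAs with at least 5 cells of MVD, RPL18, ATAD2, DNMT3B and SMARCD1. Both RPL18 gRNAs lie at a sterol ratio near 0.79, all ATAD2 gRNAs lie above 1, and SMARCD1_gRNA1 stands apart at 1.72 with 6 cells.

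The 25 target pools, which all share the Non-Targeting cells as reference, were set against the spread of single non-targeting gRNAs. Sterol ratios ran from 0.812 in the RPL18 pool to 1.15 in the DNMT3B pool, with 4 pools above and 2 below the range of non-targeting gRNAs. Fatty acid ratios ran from 0.891 in the MVD pool to 1.09 in the DNMT3B pool, and 0 pools lay outside that range. Above the range for sterols were DNMT3B (1.15), ATAD2 (1.15, 1.098 to 1.198), DNMT3A (1.11) and SMARCD1 (1.11), and below it were RPL18 (0.812, 0.769 to 0.856) and TRMT112 (0.880, 0.818 to 0.946). With each pool and each non-targeting gRNA stripped of its highest cell, chosen as an alternative after the values were seen, ATAD2 (1.08), SMARCD1 (1.06) and RPL18 remained outside. The upper end of the sterol range was then 1.057, so SMARCD1 lay only just above it. DNMT3A went to 1.03 and DNMT3B to 0.978, while for the fatty acid sum DHODH, EZH2 and HAT1 then lay above the range, whose upper end was 1.04, so that 3 pools lay outside for each sum. The sterol values of RPL18 and ATAD2 lay outside the range with any gRNA number left out. Without gRNA1 of each target, DNMT3B and SMARCD1 lay inside it, while TRMT112 (0.858) was below it with fewer than 20 cells. SMARCD1 also lay inside it without gRNA4 of each target. Without FDPS and EBP in the sum, also chosen after the values were seen, RPL18 was at 0.848 and inside a range that then reached down to 0.791.

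**Figure D3:**
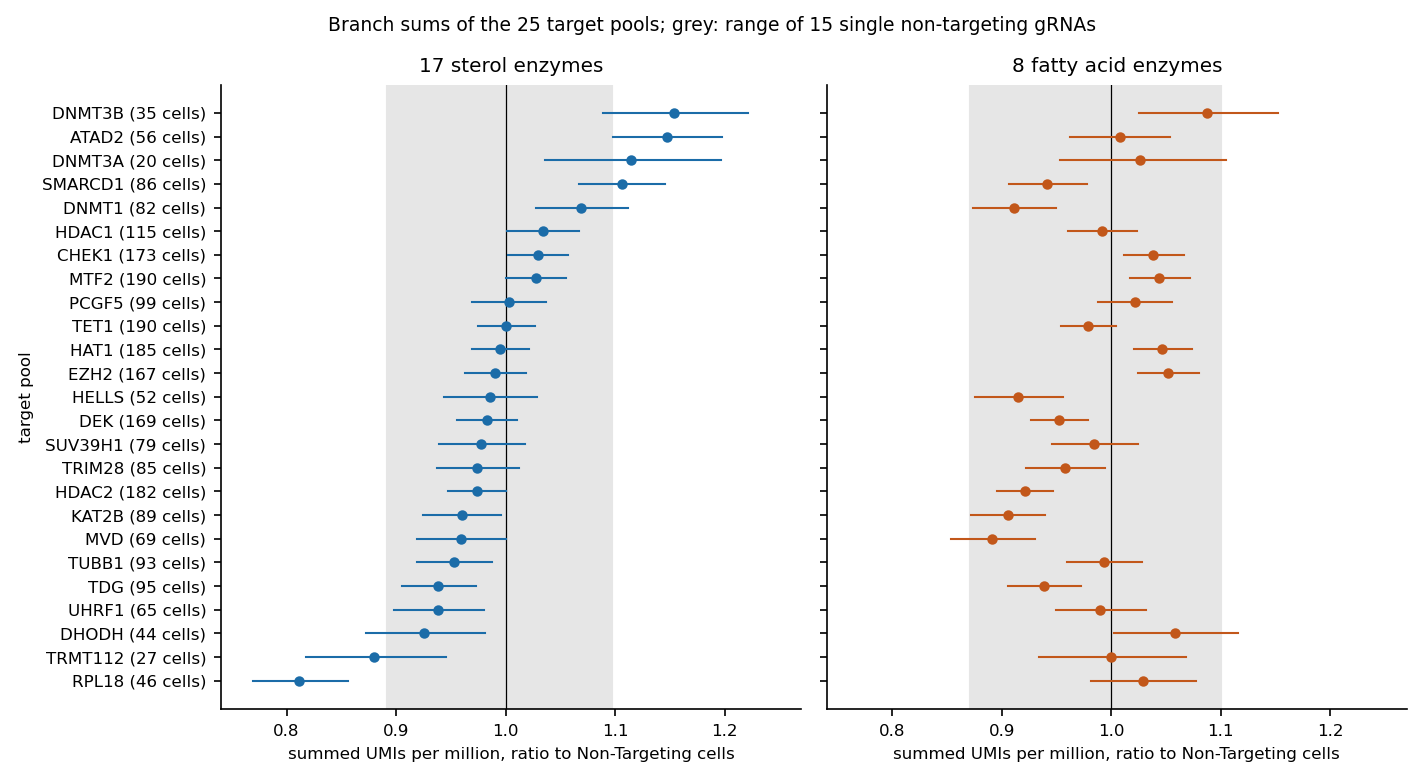
Summed CPM of the 17 sterol enzymes (left) and the 8 fatty acid enzymes (right) in each of the 25 target pools, as a ratio to Non-Targeting cells, with exact 95% intervals that cover counting error only. The grey band is the range of 15 single non-targeting gRNAs, 0.891 to 1.10 for sterols and 0.871 to 1.10 for fatty acids. DNMT3B, ATAD2, DNMT3A and SMARCD1 lie above it and TRMT112 and RPL18 below it on the left, while no pool lies outside it on the right.

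The RPL18 pool, with gRNAs against a protein of the large ribosomal subunit, had the lowest sterol sum. It held 46 cells, and RPL18 itself stood at 3872 CPM against 4272, a ratio of 0.906 (0.885 to 0.929). The sterol sum was 798 CPM against 984, whereas the fatty acid sum was 1053 against 1024 CPM, a ratio of 1.03 (0.981 to 1.08). That fatty acid value was uneven between gRNAs, with 637 UMIs of 548865 for RPL18_gRNA2 and 1118 of 1152655 for RPL18_gRNA3. Without gRNA3 the fatty acid ratio was 1.17, above the range of single non-targeting gRNAs. Sterol UMIs made up 43.1% (Clopper-Pearson 95% interval 41.4 to 44.8%) of the UMIs of both sums, against 49.0% in Non-Targeting cells and 45.8 to 53.1% over the single non-targeting gRNAs. The DHODH pool (45.69%) and the TRMT112 pool (45.83%) also lay just below the lowest single non-targeting gRNA (45.85%).

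By gRNA, the sterol ratio was 0.798 (0.724 to 0.878) with RPL18_gRNA2 (15 cells) and 0.784 (0.732 to 0.838) with RPL18_gRNA3 (26 cells). RPL18_gRNA1, with 2 cells, was at 1.15 (0.960 to 1.36), and RPL18_gRNA4, with 3 cells and 5 sterol UMIs in all, at 0.818 (0.266 to 1.91); its 3 cells had a median of 2039 UMIs. Both larger gRNAs were low by a like amount, although the RPL18 ratio was 0.991 (0.951 to 1.03) with gRNA2 and 0.884 (0.857 to 0.911) with gRNA3. Among the 42 cells with at least 10000 UMIs, 16 lay above the Non-Targeting median of 920 CPM, and the pool's median was 822 CPM.

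In the RPL18 pool 18 of the 31 genes were measured. Of 10 measured sterol enzymes 5 were lower and 0 higher, beside 15.1% lower and 4.49% higher of all 3943 measured genes, a background above that of the MVD pool. EBP was at 99.8 against 143 CPM (log2 ratio -0.51), IDI1 at 55.4 against 76.2 (-0.45), ACAT2 at 58.1 against 77.4 (-0.41), NSDHL at 31.3 against 41.3 (-0.39) and FDPS at 172 against 220 (-0.35). EBP was at 74.7 CPM with gRNA2 and 103 CPM with gRNA3, and FDPS at 159 and 174 CPM, so both genes were below the controls with each.

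SQLE (82.3 against 94.1 CPM), DHCR7 (40.03 against 45.04), PMVK (64.7 against 70.2), FDFT1 (77.9 against 82.9) and TM7SF2 (36.2 against 36.6) stayed within the fold. FASN was the only fatty acid enzyme of 6 measured that was lower, at 65.8 against 89.2 CPM (-0.43). SCD was at 346 against 278 CPM (0.31), within the fold in the pool, but at 454 CPM with gRNA2 and 285 CPM with gRNA3. INSIG1 (26.9 against 31.05 CPM) and SREBF1 (57.6 against 57.0 CPM) stayed within the fold. Of 5 measured uptake and isoprenoid genes 1 was lower, and none of 3 further SREBP regulators and 4 further lipogenic genes passed the fold. The S phase sum was 0.705 (0.661 to 0.750) and the G2/M sum 0.723 (0.692 to 0.756) of Non-Targeting cells, and their part in the lower sterol sum was not tested.

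TRMT112, a cofactor of several methyltransferases, was the other target with a low sterol sum, in 27 cells. TRMT112 mRNA stood at 230 against 350 CPM (ratio 0.657, 0.569 to 0.755). The sterol ratio was 0.934 (0.817 to 1.06) with gRNA1 (10 cells), 0.922 (0.756 to 1.11) with gRNA3 (5 cells) and 0.850 (0.769 to 0.937) with gRNA4 (11 cells), and 0.683 (0.373 to 1.15) in the single cell with gRNA2. The pool lay inside the range of non-targeting gRNAs without gRNA4 (0.917), for the mean over cells (0.891), with totals without mitochondrial and ribosomal protein genes (0.887), for the median of the members (0.917), without the highest cell (0.852) and without FDPS and EBP (0.972). FDPS was at 161 against 220 CPM (log2 ratio -0.45) and EBP at 101 against 143 CPM (-0.50), beside FASN at 60.05 against 89.2 CPM (-0.56) and ACLY at 103 against 130 CPM (-0.33). In this pool 2 of 7 measured sterol and 2 of 5 measured fatty acid enzymes were lower, beside 8.78% lower and 4.2% higher of all 2165 measured genes. Of 6 measured further pathway genes 1 was higher and 1 lower. NPC2, which carries cholesterol out of the lysosome, was higher (463 against 334 CPM, log2 ratio 0.47), and the elongase ELOVL1 was lower (45.3 against 60.6 CPM, -0.41). NPC1, its partner in the lysosomal membrane, and the cholesterol exporter ABCA1 were under the minimum, with 37 UMIs (41.9 against 21.4 CPM, ratio 1.96, 1.37 to 2.74) and 18 UMIs (20.4 against 7.59 CPM, ratio 2.69, 1.56 to 4.36). Its G2/M sum was 0.650 (0.608 to 0.694) of Non-Targeting cells, and its part was not tested.

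ATAD2, a bromodomain ATPase of chromatin, marked a pool of 56 cells with a sterol sum of 1128 against 984 CPM. All 3 of its gRNAs with cells lay above Non-Targeting cells, at 1.07 (0.972 to 1.18) with gRNA1 (11 cells), 1.24 (1.15 to 1.33) with gRNA2 (17 cells) and 1.12 (1.05 to 1.19) with gRNA4 (28 cells). The order of ATAD2 mRNA over these gRNAs was neither the same nor the reverse. The mRNA was lowest with gRNA2, the gRNA with the highest sterol ratio. There it stood at 16.3 CPM against 55.9 CPM in Non-Targeting cells (ratio 0.291, 0.139 to 0.537). With gRNA4 it was at 79.6 CPM (ratio 1.43, 1.12 to 1.80). With gRNA1, which had the lowest sterol ratio, it lay between them at 41.6 CPM (17 UMIs, ratio 0.745, 0.433 to 1.197).

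In the ATAD2 pool 1 of 11 measured sterol enzymes was higher and 0 lower, beside 1.96% higher and 4.27% lower of all 4193 measured genes. SQLE, the epoxidase that acts on squalene, was at 127 against 94.1 CPM (log2 ratio 0.43). FDPS (253 against 220 CPM), FDFT1 (101 against 82.9), ACAT2 (92.0 against 77.4), DHCR7 (53.6 against 45.0) and IDI1 (89.5 against 76.2) were each within the fold, while PMVK was at 58.1 against 70.2 CPM. The median log2 ratio of the measured sterol enzymes was 0.21, beside -0.01 over all measured genes and over the fatty acid enzymes. Among the other pathway genes SCARB1 alone passed the fold (28.3 against 36.3 CPM). The squalene and sterol steps were at 1.18 (1.114 to 1.257) and the mevalonate steps at 1.11 (1.04 to 1.18), and the G2/M sum was 0.973 (0.938 to 1.01). The S phase sum of the pool lay inside the range of single non-targeting gRNAs, 0.806 to 1.46. Across the 25 target pools, which are not replicates, sterol CPM had Pearson r = 0.52 with S phase CPM and 0.22 with G2/M CPM. The part of the cell cycle was not tested.

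The values of DNMT3B and SMARCD1, a DNA methyltransferase and a chromatin remodelling subunit, rested largely on single cells or gRNAs. In the DNMT3B pool of 35 cells, 1 cell with DNMT3B_gRNA1 held 211 sterol UMIs and 208 fatty acid UMIs of 23626, or 8931 and 8804 CPM, the highest of all cells with at least 10000 UMIs in both sums. That cell had 82 UMIs of FDPS, 93 of FADS1, 26 of SCD, 14 of MVD and 23 of ACSS2, but 0 of EBP and 0 of INSIG1, and its called gRNA had 7 UMIs. Over the whole pool the 4 measured genes furthest from the controls were FDFT1 (123 against 82.9 CPM), PMVK (54.2 against 70.2), FADS2 (138 against 111) and FDPS (272 against 220). Without that cell the pool was at 0.978 (0.918 to 1.04) for sterols and 0.920 (0.863 to 0.980) for fatty acids.

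In the SMARCD1 pool of 86 cells, the 6 cells with SMARCD1_gRNA1 were at 1.72 (1.54 to 1.91), among them a cell at 4532 CPM, the other gRNAs at 1.06, 0.978 and 1.21. ACAT2 (99.3 against 77.4 CPM), HMGCS1 (39.5 against 27.9) and MSMO1 (28.6 against 21.3) were higher and SCD lower (222 against 278 CPM) in that pool. These were 3 of 12 measured sterol and 1 of 6 measured fatty acid enzymes, beside 3.14% higher and 3.79% lower of all 5825 measured genes. Of 6 measured further lipogenic genes 1 was higher, MID1IP1 (28.02 against 20.9 CPM), of 5 measured further SREBP regulators 1 was lower, and none of 8 measured uptake and isoprenoid genes passed the fold. SMARCD1 itself was at 24.3 against 36.7 CPM. By gRNA it was at 14.2 CPM with gRNA1 (3 UMIs), 16.8 with gRNA2, 18.7 with gRNA3 and 45.2 with gRNA4. Its mRNA thus did not follow the order of the sterol ratios, which were 0.978 with gRNA3 and 1.21 with gRNA4.

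Gene by gene, the 25 pools spread differently. FADS1 was the most even of the genes measured in all pools, with log2 ratios from -0.21 in the MVD pool to 0.10 in the DNMT3B pool. EBP ran from -0.51 in the RPL18 pool to 0.23 in the DNMT1 pool, and its single non-targeting gRNAs from -0.16 to 0.24. FDPS ran from -0.45 in the TRMT112 pool to 0.31 in the DNMT3B pool, against -0.24 to 0.23 in single non-targeting gRNAs. The low ends of both genes thus lay beyond the controls. The DNMT3B ends of FADS1 and FDPS include the highest cell of that pool, described above. It held 93 of the 422 FADS1 UMIs and 82 of the 296 FDPS UMIs, and the ratios of single genes were not recomputed without it.

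SQLE reached 0.68 in the DNMT3A pool and FDFT1 0.57 in the DNMT3B pool, while FASN reached -0.56 in the TRMT112 pool and ACAT2 -0.68 in the DHODH pool. Of the 134 FDFT1 UMIs of the DNMT3B pool, 25 came from its highest cell. SCD ran from -0.38 to 0.32 and FADS2 from -0.33 to 0.31 over the pools. Single non-targeting gRNAs ran from -0.53 to 0.12 for SCD and from -0.45 to 0.52 for FADS2. SC5D and ACSS2 were measured in no pool and LSS in 2.

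Between cells, both sums varied by a like amount. Over the 5317 cells with at least 10000 UMIs, the sterol sum had a median of 913 CPM with the lowest 5% of cells under 430 and the highest 5% above 1608, and the fatty acid sum had a median of 939 CPM with 470 and 1771 at the same points. For correlations each cell was thinned to 10000 UMIs. These are descriptions across cells of 1 library, which share depth and the cell cycle, and cells are not replicates.

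The sterol sum and the fatty acid sum correlated weakly (Pearson r = 0.21, Spearman rho = 0.21). At this depth the sterol sum correlated more with the S phase sum (r = 0.32) and the G2/M sum (r = 0.32) than with the fatty acid sum, which had r = 0.12 and r = 0.11 with the same sums. The mevalonate steps and the squalene and sterol steps had r = 0.27 with each other, and r = 0.30 and r = 0.19 with the G2/M sum. After regression on both cell cycle sums, r between the branches was 0.18 and between the early and late sterol steps 0.21.

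Among the 26 of 31 genes detected in 10% or more of the thinned cells, the pair with the highest r was SCD and FADS1 (0.22), followed by ACAT2 and FDPS (0.20), SCD and FADS2 (0.17), FADS1 and FADS2 (0.17), FDPS and EBP (0.16) and ACAT2 and EBP (0.16). These pairs fell into a desaturase group and a group of ACAT2, FDPS and EBP. The latter also had the highest r of the 31 genes with the G2/M sum (0.24, 0.24 and 0.29). The r of pairs was not adjusted for the cell cycle, and its part was not tested. SQLE crossed the branches, with r = 0.12 both with FADS1 and with SCD, beside 0.12 with IDI1. EBP and SCD had the lowest r of all 325 pairs, -0.05.

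Of these pairs 13 had r above 0.1, beside 0.47% of the 25407756 pairs of 7129 genes. They were 5 of 21 fatty acid pairs (23.8%), 6 of 105 sterol pairs (5.71%) and 2 of 105 pairs between the branches (1.90%). The median r was 0.05 within each branch and 0.03 between them, beside 0.0022 over all pairs. Most pairs lay near 0, and at these counts a weak r is not read as a finding. SREBF1 had r = 0.07 with the fatty acid sum and -0.03 with the sterol sum, and SREBF2 0.05 and 0.04.

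**Figure D4:**
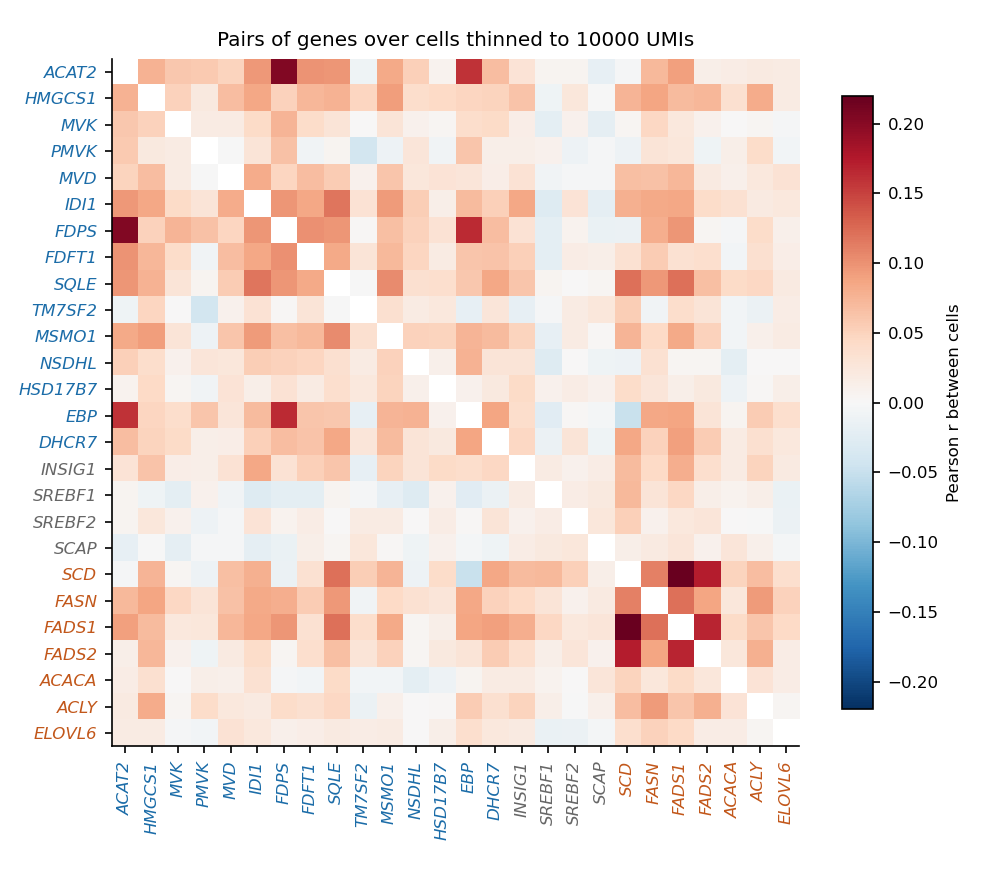
Pearson r between pairs of the 26 detected genes across 5317 cells thinned to 10000 UMIs, with sterol enzymes in blue, INSIG1 and regulators in grey and fatty acid enzymes in orange. The darkest cells are SCD with FADS1 (0.22) and ACAT2 with FDPS (0.20), EBP with SCD is the lowest (-0.05), and most cells are near 0.

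The genes that were no members of either pathway and had the highest r with the sterol sum were the tubulins TUBA1B (0.34), TUBB4B (0.33), TUBB (0.30) and TUBA1C (0.28), the chaperone HSP90AA1 (0.34), the glycolytic enzyme ENO1 (0.31), the histone gene H2AFZ (0.30), SNRPB (0.30), CKS1B (0.29) and HMGB1 (0.28). With the fatty acid sum they were KPNB1 (0.18), the amino acid transporter SLC7A5 (0.16), MT-ND2 (0.15), ACTN4 (0.15), AP1M2 (0.15), FLNA (0.14), BRCA1 (0.14), FAM213A (0.14), SNORC (0.13) and MYH9 (0.12). The median over all 7129 genes was 0.01 for both sums.

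The cells were then grouped by their thinned G2/M sum into 5 groups of rising level, with 1603, 817, 779, 1096 and 1022 cells, unequal because many cells share low counts. The G2/M list holds none of the 31 genes. From the lowest to the highest group the sterol sum was 800, 884, 989, 1088 and 1118 CPM, while the fatty acid sum was 945, 981, 1043, 1047 and 1037 CPM. The highest group stood at 1.397 (1.36 to 1.43) of the lowest for sterols and at 1.10 (1.07 to 1.13) for fatty acids. Median depth before thinning was 31603 UMIs in the lowest and 43611 in the highest group, and its part was not tested.

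**Figure D5:**
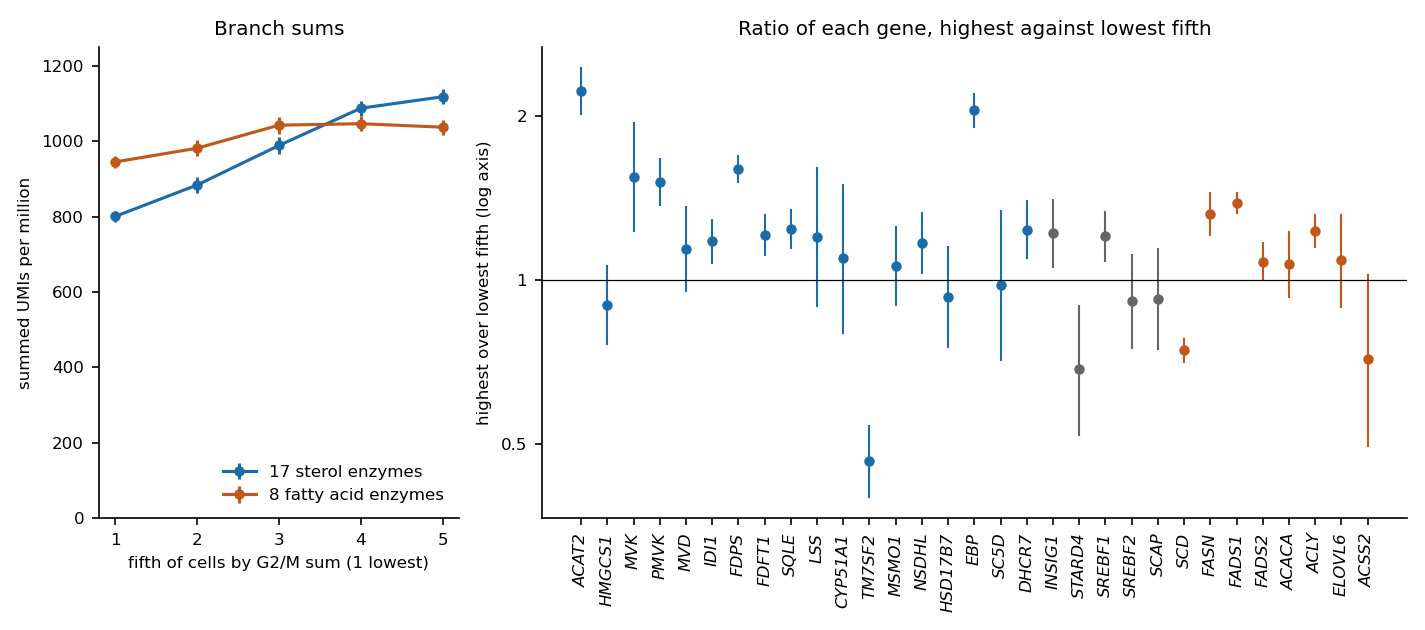
Left, summed CPM of the sterol and fatty acid enzymes in 5 groups of cells (1 lowest, 5 highest) by rising G2/M sum, thinned to 10000 UMIs per cell. Right, the ratio of each gene between the highest and the lowest group (log axis), with exact 95% intervals that cover counting error only. The sterol line runs from 800 to 1118 CPM and the fatty acid line from 945 to 1037 CPM, with ACAT2 and EBP above a ratio of 2 and TM7SF2 and SCD below 0.75.

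All 31 genes were measured in this comparison. Of the 17 sterol enzymes 5 were higher and 1 lower in the highest group, beside 26.7% higher and 16.3% lower of all 9544 measured genes, so the share of higher sterol enzymes was close to that of all genes. The 5 were ACAT2 (100.3 against 45.1 CPM, ratio 2.22, 2.02 to 2.45), EBP (179 against 87.3 CPM, 2.05, 1.91 to 2.20), FDPS (265 against 165 CPM, 1.60, 1.52 to 1.69), MVK (15.1 against 9.73 CPM, 1.55) and PMVK (78.4 against 51.7 CPM, 1.52).

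TM7SF2 was lower, at 22.3 against 48.0 CPM (0.465, 0.399 to 0.540). HMGCS1, which catalyses the entry into the mevalonate pathway, was at 22.4 against 24.9 CPM (0.900, 0.762 to 1.06), and SQLE at 107 against 86.2 CPM (1.24), within the fold. The higher sterol sum of the highest group was thus carried by a few enzymes, chiefly ACAT2, EBP and FDPS.

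Of the 8 fatty acid enzymes 2 were higher and 2 lower. FADS1 (404 against 291 CPM, 1.39, 1.33 to 1.45) and FASN (91.3 against 69.0 CPM, 1.32, 1.21 to 1.44) were higher. SCD (230 against 310 CPM, 0.743, 0.707 to 0.780) and ACSS2 (4.60 against 6.43 CPM, 0.716, 0.496 to 1.02) were lower, the latter with an interval that includes 1. SCD and FADS1, the pair with the highest r between cells, therefore differed in opposite directions between these groups. STARD4 was lower (7.73 against 11.3 CPM, 0.685), while INSIG1, SREBF1, SREBF2 and SCAP stayed within the fold.

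Cells with several called gRNAs, left out of the pools, had a sterol sum of 899 CPM (883 to 916) and a fatty acid sum of 1134 CPM (1116 to 1152), against 981 and 1014 CPM in cells with 1 gRNA. Cells with no called gRNA stood at 986 and 1008 CPM, close to cells with 1 gRNA for both sums.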

How the data were processed

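Per the labels and the methods of the study, the authors made 10x libraries of the transcriptome and of the gRNAs from 1 set of cells and deposited 1 matrix of whole-number UMI counts for all genes and gRNAs, not normalised. The submitters' processing notes name Cell Ranger, Seurat 4.1.0, R 4.2.0 and GRCh38. The members and all gene lists were chosen with earlier results of these data known.

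CPM was computed over the gene rows of the pooled cells. A gRNA was called above 3 UMIs, and pools held cells with exactly 1 called gRNA. A called gRNA can carry mutations, which were not examined here. No doublet caller was run. Ratios to Non-Targeting cells have exact conditional binomial 95% intervals, levels have exact Poisson intervals, and log2 ratios used a pseudocount of 1 CPM. A gene was measured where at least 50 UMIs were anticipated in the pool from both groups together. Named were the 31 genes, the 4 of them furthest from 0 in the MVD pool and in the pools with the highest and lowest sums, and the 10 other genes with the highest r for each sum. Further pathway genes, other genes given per pool and the single cells were named after their values were seen, and some genes of those lists are not reported here. Cells with at least 10000 UMIs were thinned without replacement to 10000 UMIs, with log-transformed values for correlations. With 1 pool and no replicates, no test was made.

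Promoter windows were those of RefSeq, GRCh38.p14. Python 3.11.15, numpy 2.4.6, pandas 2.3.3, scipy 1.17.1, scikit-learn 1.9.0 and matplotlib 3.10.9 were used, and the scripts were tested on simulated data. Alternatives changed the gRNA call, the depth, the pseudocount, the fold, the minimum, the totals, the summary of a branch and the cells or gRNAs included.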

Additional observations from a re-analysis of the deposited data

How the results depend on the processing

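The sterol ratio of the MVD pool (0.959) stayed between 0.912 and 1.01 when each gRNA was left out in turn, and its fatty acid ratio (0.891) between 0.838 and 0.921. Without SCD and FADS1 the latter was 0.961. The 2 genes past the fold in that pool were not the same genes in all settings. With a gRNA left out there were 1 to 3 (TM7SF2 and INSIG1 without gRNA1, ACAT2 and FADS2 without gRNA4), 1 for the mean over cells or with a pseudocount of 10 CPM, 8 with no minimum and 0 at a fold of 1.5. Without gRNA4 only 15 genes were measured, and INSIG1 was under the minimum. Pools outside the range of non-targeting gRNAs for sterols (6 of 25) were 2 to 5 with a gRNA left out, counted over the 23 or 24 pools that kept 20 cells (TRMT112, at 0.858 without gRNA1, was not among them), 2 for the median of the members and 3 without the highest cell of each pool. For fatty acids (0) they were 0 to 2 with a gRNA left out, 1 for the mean over cells, after centring on the median gene, or with totals without mitochondrial and ribosomal protein genes, 2 for the median of the members, and 3 without the highest cell or without SCD and FADS1.

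The RPL18 sterol ratio stayed between 0.779 and 0.859 and the ATAD2 ratio between 1.08 and 1.17 in all 16 alternatives of each. The TRMT112 ratio was 0.972 without FDPS and EBP. The DNMT3B ratios turned below 1. For sterols they were 0.986 with a Gaussian mixture call, 0.980 with the first gRNA at 80% or more, 0.978 without the highest cell, and from 0.970 (without gRNA1) to 1.47 (without gRNA3) with a gRNA left out. For fatty acids they were 0.929 with the mixture call, 0.935 above 10 gRNA UMIs, 0.945 with the 80% share, 0.920 without the highest cell, and 0.902 to 1.39 with a gRNA left out. The correlation of the branches over cells (0.211) was 0.323 without thinning, 0.328 thinned to 20000 UMIs and 0.133 in the 650 non-targeting cells. The cause of these moves was not tested.

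The alternatives without the highest cell, without FDPS and EBP and without SCD and FADS1 were chosen after seeing the data. Depth limits the MVD pool to 20 measured genes, and 11 of the 31 genes, MVD among them, lay under the minimum there. No paired analysis was possible because all cells came from 1 pool without replicates.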
